A study of Mus musculus with 6 samples.

Results

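The genes described here are 45 cell cycle and DNA replication genes, taken from the deposited count table by symbol, and their levels were compared between sorted muscle and sorted epithelium of the embryonic mouse trachea. All 45 were among the 23478 gene rows, and all 45 passed the filter on low counts that left 19375 genes for testing. By role they form a G1 group of 12 genes, an S phase group of 13 and a mitosis group of 20. Tracheas came from mouse embryos at embryonic day 13.5. The genotype of every library was Bmp4 f/f; gamma SMA eGFP, that is, both populations carried floxed Bmp4 alleles and a green fluorescent reporter of gamma smooth muscle actin. All 6 libraries are labelled as controls, and no Cre driver or treatment is given for any of them. Muscle cells were collected by GFP (3 libraries) and epithelial cells by an antibody to surface Epcam (3 libraries). The labels do not say whether the libraries of a population came from separate litters, so the p-values measure the spread between these libraries.

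The cell cycle is driven by cyclins, which rise and fall, and by the cyclin-dependent kinases (CDKs) that they activate. D-type cyclins with Cdk4 and Cdk6, then E-type cyclins with Cdk2, carry a cell through G1 and release E2F factors, which switch on genes for DNA replication. Cyclins A and B with Cdk1 then drive entry into mitosis, for which a further set of kinases, motors and kinetochore proteins is transcribed. Bulk RNA levels of these genes combine the share of cells in each phase with the RNA per cell, and the libraries cannot tell these apart.

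The libraries held between 11847432 and 54848820 counts. Smooth muscle markers (10 of 10) were higher in muscle and epithelial markers (11 of 11) in epithelium in edgeR's quasi-likelihood test with Benjamini-Hochberg adjustment, the test used throughout. Epithelium replicate 2 had the highest or lowest value of the epithelial libraries in several measures that involve no cell cycle gene. It was the shallowest library. It had the most counts over 1456 olfactory and vomeronasal receptor genes, at 1.25 CPM (the count scaled by the library total) per gene, against 0.0050 and 0.44 in epithelium replicates 1 and 3. Its 8 fibroblast markers stood at a median of 29.8% of their muscle level, against 5.49% and 4.92%. The summed levels of the cartilage (10 genes), endothelial (8), erythroid (9), immune (8), neural and glial (8) and mesothelial (4) marker lists were also highest in it among the epithelial libraries. These sums were 618, 63.7, 24.7, 36.7, 57.8 and 16.4 CPM. They were 449, 2.10, 7.025, 4.09, 27.2 and 2.695 CPM in epithelium replicate 1. They were 265, 22.8, 21.8, 19.9, 31.8 and 10.5 CPM in epithelium replicate 3. In all of these sums but cartilage, and in the receptor gene counts, epithelium replicate 3 lay between epithelium replicates 1 and 2. In epithelium replicate 2, 4 of the 9 erythroid markers were at 0, and no gene of the other lists was. Muscle replicate 2 had the least smooth muscle marker RNA of the muscle libraries, with a summed 4365 CPM against 17750 and 19300. Its receptor genes had 0.61 CPM per gene, against 0.026 and 0.017 in muscle replicates 1 and 3. Its cartilage, immune, neural and glial, and mesothelial sums (1557, 44.1, 42.3 and 16.4 CPM) were the highest of the muscle libraries. Its endothelial and erythroid sums (72.9 and 16.95 CPM) lay between the others. Cartilage sums in muscle replicates 1 and 3 were 880.5 and 1458 CPM. In the identifiers of the file header, both replicates numbered 2 carry what reads as an earlier date than the other 4 libraries, of which the replicates numbered 3 have it in a shortened form. The header does not say what this date marks, and its separate date row is the same for all 6. The results are therefore given also without epithelium replicate 2 and for the later date alone.

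A single gene of the 45 passed an adjusted p of 0.05. It was Ccnd2, the gene for cyclin D2, which was higher in epithelium, and none was higher in muscle (edgeR). Of all 19375 genes tested, 10.7% passed this threshold, 4.11% higher in epithelium and 6.58% higher in muscle. DESeq2 called 8 of the 45, 7 higher in epithelium and 1 in muscle, and of the 14468 genes to which it gave an adjusted p it called 24.4%, 10.9% higher in epithelium and 13.5% in muscle. In edgeR the remaining 44 did not pass. An unadjusted p under 0.05 was found in 8 of the 45, against 4197 of all 19375 tested genes (edgeR). A fitted log2 fold change between -0.5 and 0.5 was found in 29, against 8379 of all tested genes. Fitted values leaned toward epithelium in 36 of 45 genes (80.0%), against 54.5% of all tested genes. The median log2 fold change of muscle over epithelium was -0.16 in the G1 group, -0.25 in the S phase group and -0.30 in the mitosis group, beside -0.10 over all tested genes. All muscle libraries lay above or below all epithelial ones in 8 of the 45, against 26.9% of all tested genes. A missed threshold does not show equal levels. The 95% interval of the log2 fold change lay wholly between -1 and 1 for 18 of the 45 genes, against 4239 of all 19375. Its median reach on either side of the fitted value was 0.71, against 1.01 over all tested genes.

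**Figure D1:**
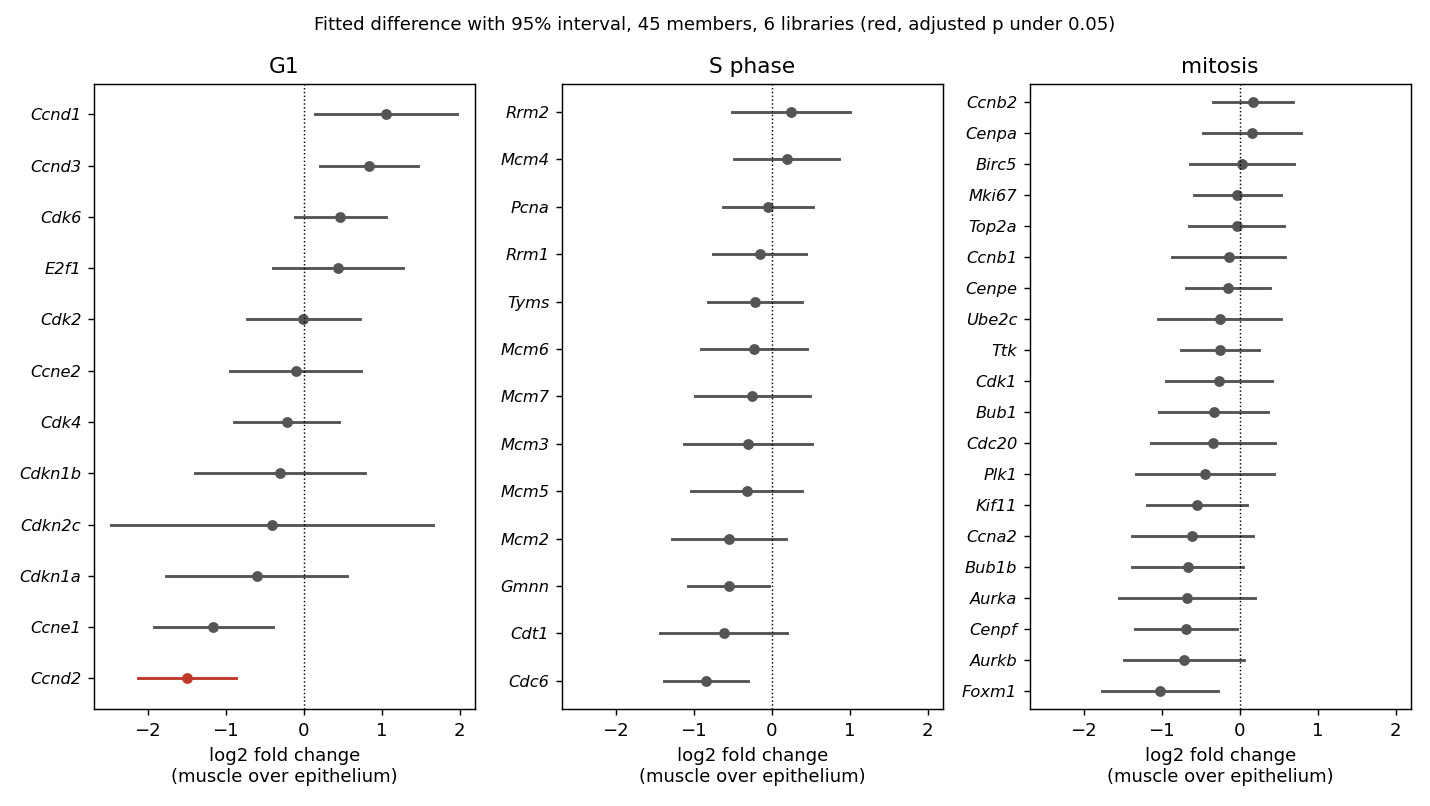
Fitted log2 fold change of muscle over epithelium (x axis) for each of the 45 genes (y axis), by group, with the 95% interval of the fit as a bar, from 3 muscle and 3 epithelial libraries. Ccnd2 in red is the only gene past an adjusted p of 0.05. The intervals of 37 genes include 0, as do those of 15178 of all 19375 tested genes.

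The D-type cyclins, which join growth signals to G1 kinase activity, differed from each other in direction, and of them only Ccnd2 passed. Ccnd2 (chr6:127125162-127152193, minus strand, mm10) had 541, 795 and 768 CPM in the muscle libraries, in the order of their replicate numbers, and 2188, 1512 and 2227 CPM in the epithelial ones. Single-gene CPM here carries TMM scaling, which corrects library totals for composition. The lowest epithelial library had more Ccnd2 than any muscle library. The muscle mean was 702 ± 139 CPM and the epithelial mean 1975 ± 402 CPM (SD, n = 3 each), which is 2.82-fold higher. The log2 fold change was -1.49 ± 0.28 (SE, 95% interval -2.12 to -0.86, adjusted p = 0.0094, edgeR). It was -1.69 (adjusted p = 0.0040) without epithelium replicate 2 and -1.83 (adjusted p = 0.0034) for the later date alone. The call was lost without muscle replicate 1, at a log2 fold change of -1.33 and an adjusted p of 0.059.

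Ccnd3 (chr17:47505051-47599691, plus strand), the gene for cyclin D3, leaned the other way. Its levels were 666, 544 and 807 CPM in muscle and 462, 283 and 383 CPM in epithelium. Ccnd3 was the 1 gene of the 45 with all muscle libraries above all epithelial ones, an arrangement found in 16.4% of all tested genes. The fitted log2 fold change, 0.84 ± 0.28, missed the threshold (95% interval 0.21 to 1.46, adjusted p = 0.098, edgeR). For the later date alone it was 0.73 (adjusted p = 0.039), and without epithelium replicate 2 it was 0.60 (adjusted p = 0.21).

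Ccnd1 (chr7:144929931-144939925, minus strand), the gene for cyclin D1, varied most between muscle libraries. Muscle replicate 1 had 143 CPM, and muscle replicates 2 and 3 had 448 and 428 CPM. The epithelial libraries had 142, 181 and 167 CPM. Muscle replicate 1 thus lay within the epithelial range, and the other muscle libraries lay above it. The log2 fold change was 1.06 ± 0.40 (95% interval 0.14 to 1.97, adjusted p = 0.15, edgeR). For the later date alone it was 0.81 (adjusted p = 0.33). Without muscle replicate 1 it was 1.44, with an adjusted p of 0.020, and Ccnd1 was then the only gene of the 45 to pass, where 3.94% of all tested genes were higher in muscle.

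To set the 3 genes side by side, CPM was divided by the length of their annotated exons in GENCODE M21. Ccnd2 made up 20.6%, 25.7% and 20.5% of the summed D cyclin level per kilobase in the muscle libraries and 59.0%, 57.9% and 62.2% in the epithelial ones. Ccnd3 made up 69.6%, 48.2% and 59.0% in muscle and 34.2%, 29.7% and 29.4% in epithelium. On this scale Ccnd3 was the largest of the 3 in every muscle library and Ccnd2 in every epithelial library. Ccnd1 made up 18.8% ± 8.27 in muscle and 9.23% ± 2.85 in epithelium (SD, n = 3 each). The summed level per kilobase was 470.1 ± 84.4 CPM per kilobase in muscle and 492 ± 89.3 in epithelium, and these means lay closer together than 1 SD. Without the division by length, where the long Ccnd2 weighs more, the sum was 1714 ± 333 CPM in muscle and 2515 ± 467 CPM in epithelium, further apart than 1 SD. Each of the 3 genes shares exon sequence with a gene on the opposite strand, and the library kit does not keep strand. Gm43126, opposite Ccnd2, was not among the gene rows, so no level of it can be given. Bysl, opposite Ccnd3, had 62.6 to 91.1 CPM in muscle and 33.1 to 71.6 CPM in epithelium. Oraov1, opposite Ccnd1, had between 28.3 and 47.7 CPM in all 6 libraries. Both were named because of their position, after the overlap was found, and neither differed at the threshold (adjusted p = 0.53 and 0.999, edgeR). Their part in the D cyclin values was not tested.

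**Figure D2:**
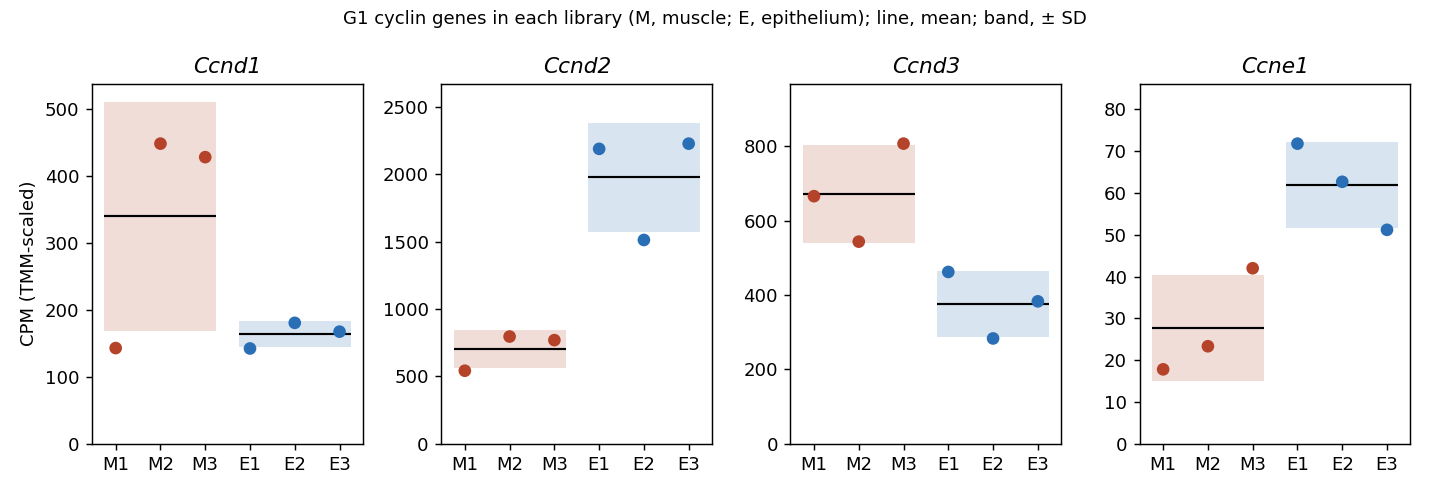
TMM-scaled CPM (y axis, from 0) of Ccnd1, Ccnd2, Ccnd3 and Ccne1 in the 3 muscle (M) and 3 epithelial (E) libraries (x axis), with the group mean as a line and ± 1 SD as a band. Ccnd2 and Ccne1 lie higher in every epithelial library, Ccnd3 in every muscle library, and Ccnd1 is as low in M1 as in epithelium.

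Of the E-type cyclins, which act with Cdk2 at the end of G1, Ccne1 had 17.8, 23.3 and 42.0 CPM in muscle and 71.8, 62.7 and 51.2 CPM in epithelium. Every epithelial library exceeded every muscle library, and the epithelial mean was 2.23-fold the muscle mean. The log2 fold change of -1.16 ± 0.34 lay just outside the threshold (95% interval -1.92 to -0.39, adjusted p = 0.063, edgeR). It was -1.11 (adjusted p = 0.15) for the later date alone. Ccne2 was low in all libraries, between 8.22 and 15.8 CPM, and its groups overlapped (log2 fold change -0.11, 95% interval -0.95 to 0.74).

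The kinase genes of G1 had intervals that include 0. Cdk4, the main partner of D cyclins, had 718 to 1033 CPM in muscle and 740.0 to 1370 CPM in epithelium. Cdk2 had 114 to 155 CPM in muscle and 81.8 to 173 CPM in epithelium (log2 fold change -0.01, 95% interval -0.73 to 0.72). Cdk6 had 26.8 to 35.97 CPM in muscle and 17.6 to 26.8 CPM in epithelium (log2 fold change 0.47, 95% interval -0.12 to 1.06). E2f1, an activating E2F factor, had 14.1 to 18.7 CPM in muscle and 7.15 to 16.5 CPM in epithelium (0.44, 95% interval -0.39 to 1.27). None of these 4 passed the threshold, with adjusted p from 0.38 for Cdk6 to 0.997 for Cdk2 in edgeR.

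Genes for CDK inhibitors, which hold cells in G1, did not pass either. Cdkn1a, which encodes p21, had 40.1 CPM in muscle replicate 1 but 10.6 and 14.3 CPM in muscle replicates 2 and 3. It had 50.1 CPM in epithelium replicate 2 against 24.7 and 24.2 CPM in the other epithelial libraries. Muscle replicate 1 therefore had the most Cdkn1a and the least Ccnd1 of the muscle libraries, and epithelium replicate 2 had the most Cdkn1a of all 6. The log2 fold change was -0.60 ± 0.51 (95% interval -1.76 to 0.55, adjusted p = 0.68, edgeR), and it was 0.08 for the later date alone. Cdkn1b, which encodes p27, had 4.52 to 10.2 CPM in muscle and 6.88 to 11.9 CPM in epithelium. Cdkn2c, which encodes p18, had 2.28 to 2.86 CPM in muscle and 2.93 to 4.48 CPM in epithelium. Its groups did not overlap, but its interval ran from -2.47 to 1.66, and its highest value came from epithelium replicate 2, the library with the most receptor gene counts. All muscle libraries lay below all epithelial ones in 3 of the 12 G1 genes, Ccnd2, Ccne1 and Cdkn2c, against 10.5% of all tested genes.

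S phase and mitosis genes are known to be timed by different promoter elements. E2F sites are known from replication genes. A cell cycle homology region (CHR), the docking site of the MuvB complexes, is known from mitotic genes, often beside CCAAT boxes bound by NF-Y. RefSeq promoter windows (GRCm38.p6) were matched for 37 of the 45 genes, and the 250 bases before the start site were searched on both strands. Of these 37 start sites, 14 matched a transcript start in GENCODE M21 exactly. Some windows, those of Cdc6 and Mcm7 among them, lay inside the GENCODE span of their own gene. Where a gene had several windows, the members took the best match to GENCODE starts, while the comparison over all genes took the first. The E2F letters were TTTGGCGC, TTTCGCGC or TTTCCCGC. The CHR was searched as TTTGAA. Its other form, TTTAAA, was also counted. The CCAAT box was searched under the letters of its name. The CHR letters were found in 12 of 17 mitosis promoters (70.6%), 2 of 11 S phase promoters (18.2%) and 2 of 9 G1 promoters (22.2%), against 25.5% of the 27025 windows of the table, 1 for each gene. A CCAAT box was found in 16 of 17 mitosis, 8 of 11 S phase and 2 of 9 G1 promoters, against 34.5% of all windows. The E2F letters were found in 4 of 11 S phase promoters (36.4%), 1 of 17 mitosis promoters and 1 of 9 G1 promoters, against 1.59% of all windows. The S phase matches of E2F letters include those of Cdc6 and Mcm7, whose windows lay inside the gene. These are matches of letters and not measured sites.

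The 6 windows printed next belong to genes described in the S phase and mitosis results, and none lies within the GENCODE span of its own gene. Capitals mark the matches, and each reads 5′ to 3′ on the strand of the gene up to the base before the start site. Mcm2 (chr6:88898781-88899030, minus) and Mcm6 (chr1:128359706-128359955, minus) belong to the S phase group. Mcm2 holds a CCAAT box and a CHR match and Mcm6 holds E2F matches and CCAAT boxes. In Mcm6 a pair of E2F matches on opposite strands overlap and read as a single run of capitals. Cenpf (chr1:189688087-189688336, minus), Plk1 (chr7:122159185-122159434, plus), Kif11 (chr19:37376132-37376381, plus) and Mki67 (chr7:135716380-135716629, minus) belong to the mitosis group, and each holds both a CHR match and a CCAAT box. In Kif11 both lie on the opposite strand and read ATTGG and TTCAAA.
Mcm2: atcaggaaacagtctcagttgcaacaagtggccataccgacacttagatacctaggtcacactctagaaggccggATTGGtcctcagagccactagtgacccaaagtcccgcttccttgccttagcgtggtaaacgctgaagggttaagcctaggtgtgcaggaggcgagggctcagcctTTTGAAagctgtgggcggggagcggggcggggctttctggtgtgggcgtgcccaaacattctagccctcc
Mcm6: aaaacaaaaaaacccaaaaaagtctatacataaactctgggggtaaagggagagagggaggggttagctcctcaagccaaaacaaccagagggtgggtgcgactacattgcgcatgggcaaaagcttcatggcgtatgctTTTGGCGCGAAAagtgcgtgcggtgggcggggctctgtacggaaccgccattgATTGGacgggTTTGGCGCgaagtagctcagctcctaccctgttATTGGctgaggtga
Cenpf: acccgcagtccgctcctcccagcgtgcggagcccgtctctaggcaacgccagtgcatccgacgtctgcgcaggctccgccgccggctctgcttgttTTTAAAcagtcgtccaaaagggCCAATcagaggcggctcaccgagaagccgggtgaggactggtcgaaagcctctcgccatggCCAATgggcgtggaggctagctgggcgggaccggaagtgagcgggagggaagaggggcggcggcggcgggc
Plk1: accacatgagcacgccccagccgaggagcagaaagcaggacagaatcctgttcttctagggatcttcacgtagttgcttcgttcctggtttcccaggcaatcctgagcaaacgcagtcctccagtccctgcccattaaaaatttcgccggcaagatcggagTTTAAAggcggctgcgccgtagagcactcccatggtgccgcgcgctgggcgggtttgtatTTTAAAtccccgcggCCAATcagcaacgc
Kif11: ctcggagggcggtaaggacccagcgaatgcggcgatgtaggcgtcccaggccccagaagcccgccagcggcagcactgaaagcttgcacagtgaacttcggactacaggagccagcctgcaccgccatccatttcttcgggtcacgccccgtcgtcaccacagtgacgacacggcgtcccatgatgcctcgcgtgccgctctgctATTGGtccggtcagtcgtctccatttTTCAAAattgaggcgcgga
Mki67: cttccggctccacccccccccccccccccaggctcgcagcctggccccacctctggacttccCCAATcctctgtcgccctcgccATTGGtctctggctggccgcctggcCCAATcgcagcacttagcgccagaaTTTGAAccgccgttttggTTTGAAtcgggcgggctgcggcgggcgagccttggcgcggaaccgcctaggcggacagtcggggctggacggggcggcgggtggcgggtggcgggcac

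None of the 13 S phase genes passed the threshold in the fit of all 6 libraries. An unadjusted p under 0.05 was found in 2 of them, against 4197 of all 19375 tested genes (edgeR). DESeq2 called 2 of the 13, both higher in epithelium, where it called 10.9% of all genes. Licensing factors, which load the replicative helicase, showed the largest fitted differences. Cdc6 had 36.3, 41.2 and 28.9 CPM in muscle and 73.8, 57.7 and 58.7 CPM in epithelium. Every epithelial library lay above every muscle library, at a ratio of means of 1.79, and the log2 fold change of -0.84 ± 0.24 did not reach the threshold (95% interval -1.38 to -0.30, adjusted p = 0.058, edgeR). It was -0.95 (adjusted p = 0.075) without epithelium replicate 2 and -1.10 (adjusted p = 0.025) for the later date alone.

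Cdt1, the partner of Cdc6 in helicase loading, had 58.004, 41.3 and 57.1 CPM in muscle and 108.8, 40.3 and 90.5 CPM in epithelium. Epithelium replicates 1 and 3 exceeded all muscle libraries, while epithelium replicate 2 was below them all. With 6 libraries the log2 fold change was -0.62 ± 0.36 (adjusted p = 0.41), and leaving out epithelium replicate 2 gave -1.0 ± 0.25 (95% interval -1.57 to -0.43, adjusted p = 0.037, edgeR). Gmnn, which encodes geminin, the inhibitor of Cdt1, had 43.2 to 46.4 CPM in muscle and 74.9, 51.2 and 71.9 CPM in epithelium. All epithelial libraries were above all muscle libraries, but the fitted value, -0.55 ± 0.23 on the log2 scale, missed the threshold (adjusted p = 0.20, edgeR). It was -0.76 (adjusted p = 0.075) without epithelium replicate 2 and -0.79 (adjusted p = 0.031) for the later date alone (edgeR).

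The 6 genes of the replicative helicase, Mcm2 to Mcm7, shared features of their profile over the libraries. Mcm2 had 334, 212 and 304 CPM in muscle and 535, 257 and 451 CPM in epithelium. Mcm6 had 487, 339 and 428 CPM in muscle and 585, 315 and 564 CPM in epithelium. In all 6 genes epithelium replicate 2 was the lowest epithelial library, and muscle replicate 2 was the lowest muscle library. Fitted log2 fold changes ran from -0.55 for Mcm2 (95% interval -1.28 to 0.19) to 0.19 for Mcm4 (-0.49 to 0.87). With that epithelial library left out they ran from -0.86 for Mcm2 (adjusted p = 0.069) to -0.11 for Mcm4, and Mcm4 changed sign. For the later date alone Mcm2 passed, at -0.70 (adjusted p = 0.029, edgeR), and the other 5 did not.

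Genes for the polymerase clamp and for nucleotide supply did not pass. Pcna, the clamp, had 116 to 134 CPM in muscle and 92.0 to 155 CPM in epithelium (log2 fold change -0.04, 95% interval -0.62 to 0.53). Of the ribonucleotide reductase subunits, Rrm1 had 237 to 301 CPM in muscle and 224 to 356 CPM in epithelium, and Rrm2 had 136 to 176 CPM in muscle and 72.2 to 175 CPM in epithelium. Tyms, which encodes thymidylate synthase, had 80.8 to 110.1 CPM in muscle and 83.0 to 138 CPM in epithelium. Groups overlapped in all 4, and a difference of more than about 2-fold lies outside the intervals of Pcna, Rrm1 and Tyms, while that of Rrm2 reaches 1.01 on the log2 scale.

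None of the 20 mitosis genes passed with 6 libraries either. An unadjusted p under 0.05 was found in 2 of them, against 4197 of all 19375 tested genes (edgeR). DESeq2 called 3 of the 20, all higher in epithelium, beside the same 10.9% of all genes. Foxm1, the transcription factor gene of the G2/M program, had the largest fitted difference. It had 27.9, 25.7 and 40.7 CPM in muscle and 89.7, 41.6 and 59.6 CPM in epithelium. The lowest epithelial library lay only just above the highest muscle library, and the ratio of means was 2.03 (log2 fold change -1.02 ± 0.33, 95% interval -1.76 to -0.28, adjusted p = 0.090, edgeR). Leaving out epithelium replicate 2, the log2 fold change was -1.32 ± 0.31 (adjusted p = 0.029), and for the later date alone it was -1.20 (adjusted p = 0.046). Ttk, a checkpoint kinase gene, was the other mitosis gene without overlap, at 22.2 to 28.4 CPM in muscle and 29.7 to 32.3 CPM in epithelium. Its difference was small (log2 fold change -0.26, 95% interval -0.76 to 0.24).

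Aurka, Aurkb and Plk1, genes of mitotic kinases, passed when epithelium replicate 2 was left out, and not with all 6 libraries. Aurkb, the kinase of the chromosomal passenger complex, had 102 (replicate 1), 92.9 and 93.9 CPM in muscle and 183, 82.3 and 209 CPM in epithelium. Aurka, the spindle pole kinase, had 119, 75.6 and 97.8 CPM in muscle and 205, 72.8 and 188 CPM in epithelium. Plk1, the polo kinase, had 85.5, 73.7 and 103.6 CPM in muscle and 148, 52.7 and 156 CPM in epithelium. In each of the 3, epithelium replicates 1 and 3 lay above all muscle libraries and epithelium replicate 2 below them all. With 6 libraries their adjusted p were 0.27, 0.40 and 0.70. When it was left out the log2 fold changes were -1.07 ± 0.21 for Aurkb, -1.07 ± 0.24 for Aurka and -0.85 ± 0.22 for Plk1, with edgeR adjusted p of 0.013, 0.026 and 0.047.

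Among kinetochore, motor and checkpoint genes, some behaved likewise and some did not. Cenpf, a kinetochore gene, had 91.2, 97.0 and 106 CPM in muscle and 198, 99.2 and 176 CPM in epithelium. Bub1b, which encodes the checkpoint protein BubR1, had 142, 101 and 137 CPM in muscle and 248, 121 and 235 CPM in epithelium. Kif11, the motor that separates spindle poles, had 73.2, 60.6 and 68.0 CPM in muscle and 117, 63.0 and 114.5 CPM in epithelium. In these 3 genes epithelium replicate 2 lay within the range of the muscle libraries, and the other epithelial libraries lay above them. They passed only without that library or under other settings, at adjusted p of 0.028, 0.028 and 0.044 without it (edgeR). Bub1, Cenpe and Cenpa had intervals that include 0 with 6 libraries, and without epithelium replicate 2 their adjusted p were 0.23, 0.61 and 0.9996. Ube2c and Cdc20, which act in the degradation of mitotic cyclins, had log2 fold changes of -0.26 and -0.34 with 6 libraries. Without that library they were -0.62 (adjusted p = 0.14) and -0.72 (adjusted p = 0.087). For the later date alone Cdc20 passed, at -0.67 (adjusted p = 0.036, edgeR), and Ube2c did not, at -0.65 (adjusted p = 0.063).

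The cyclin B genes and the usual markers of proliferation did not differ at the threshold. Mki67, the Ki-67 gene, had 139, 172 and 194 CPM in muscle and 201, 144 and 170.0 CPM in epithelium. Top2a, the topoisomerase of replicated chromosomes, had 189.7 to 220.0 CPM in muscle and 147 to 255 CPM in epithelium. The log2 fold changes were -0.03 (95% interval -0.58 to 0.53) for Mki67 and -0.04 (-0.65 to 0.57) for Top2a, and the groups overlapped in both. With epithelium replicate 2 left out, they were -0.19 (-0.78 to 0.39) and -0.30 (-0.81 to 0.22). Ccnb1 had 116 to 138 CPM in muscle and 80.9 to 191 CPM in epithelium, and Ccnb2 had 97.6 to 127 CPM in muscle and 88.0 to 109.7 CPM in epithelium. Ccnb2, Cenpa and Birc5, the survivin gene, were the only mitosis genes with a fitted value toward muscle, of 0.17, 0.16 and 0.03. Ccna2 and Cdk1, the cyclin A gene and the kinase of mitotic entry, had log2 fold changes of -0.61 and -0.27. Without that same library they were -0.93 (adjusted p = 0.055) and -0.56 (adjusted p = 0.21).

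Read by library, the S phase and mitosis genes shared low values in epithelium replicate 2 and differed in other libraries. The lowest muscle library was most often replicate 2 in the S phase group (9 of 13 genes) and replicate 1 in the mitosis group (11 of 20). Over all 19375 tested genes these were lowest in 8615 and 6481. The highest of all 6 libraries was most often epithelium replicate 1 in S phase (11 of 13) and epithelium replicate 3 in mitosis (10 of 20), against 2969 and 1675 of all tested genes. Epithelium replicate 2 was the lowest epithelial library in 13 of 13 S phase and 19 of 20 mitosis genes, against 38.5% of all tested genes. Its level was a median of 0.53 of the mean of epithelium replicates 1 and 3 in the S phase group and 0.54 in the mitosis group, beside 1.07 over all tested genes. The figures over all tested genes take in genes with few counts and are not matched for expression level. Lower values in epithelium replicate 2 were not confined to the cell cycle. Its summed epithelial markers had 3557 CPM, against 4803 and 4561 CPM in epithelium replicates 1 and 3. Its TMM factor was 1.27, against 0.98 and 1.06, and a higher factor lowers all scaled values of a library alike. Epithelium replicates 1 and 3 both exceeded all muscle libraries in 26 of these 33 genes (78.8%), against 16.5% of all tested genes. Epithelium replicate 2 lay below all muscle libraries in 20 of the 33 (60.6%), against 32.8%. The G1 group was less uniform, with ratios from 0.48 for Cdk2 to 2.05 for Cdkn1a. The median coefficient of variation over the mitosis genes was 13.8% in muscle and 33.9% in epithelium, while over all tested genes it was 34% and 33.2%. That comparison, too, was not matched for expression level. Of the epithelial libraries, epithelium replicate 2 also had the lowest depth, the most receptor gene counts and the highest marker sums of other cell types, as given above. The part of these in its low S phase and mitosis levels was not tested.

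**Figure D3:**
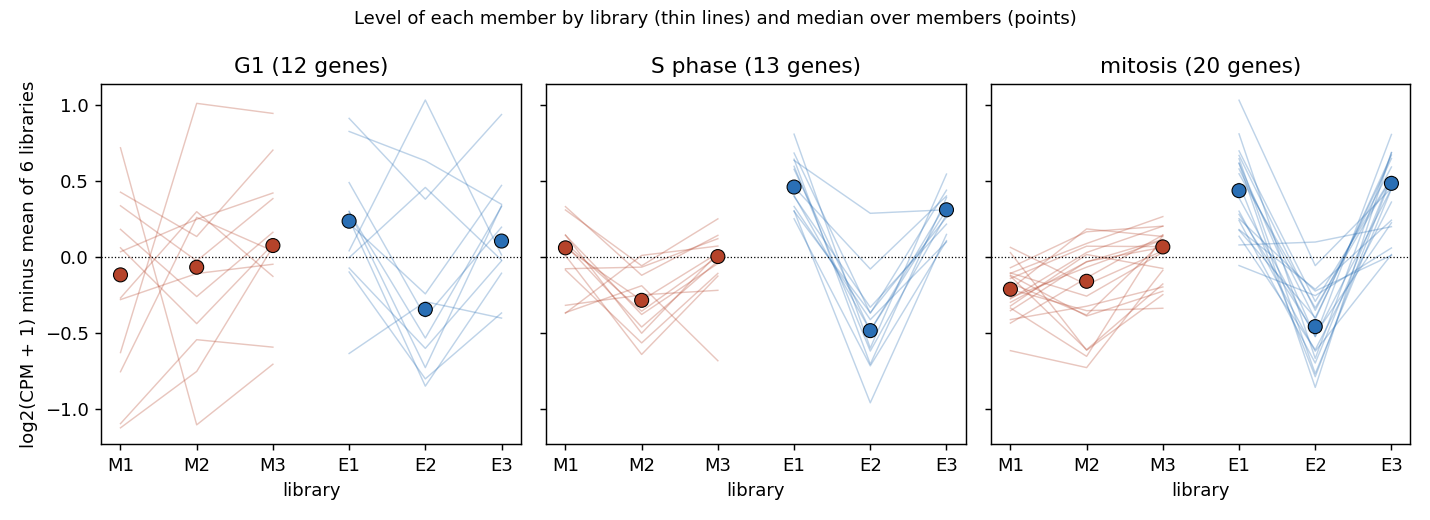
Level of each gene as log2(CPM + 1) minus its mean over the 6 libraries (y axis) in each muscle (M) and epithelial (E) library (x axis), with a thin line per gene and a point at the group's median. In the S phase and mitosis groups the medians are 0.46 and 0.44 in E1, -0.48 and -0.46 in E2, and 0.31 and 0.49 in E3, while the muscle medians lie between -0.29 and 0.07.

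Without epithelium replicate 2, 9 of the 45 genes passed the threshold, all higher in epithelium, where 4.40% of all tested genes did so. They were Ccnd2, Cdt1, Foxm1, Aurka, Aurkb, Bub1b, Plk1, Cenpf and Kif11. The median log2 fold change was -0.29 in the G1 group, -0.59 in the S phase group and -0.61 in the mitosis group, beside 0.04 over the tested genes. For the later date alone, which leaves out both replicates numbered 2, 13 genes were higher in epithelium, where 6.93% of all tested genes were, and Ccnd3 was higher in muscle, where 10.7% were. The earlier date holds 1 library per population and gives no test. Each of these fits left 2 libraries in at least 1 population, so that its spread rests on few libraries.

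**Figure D4:**
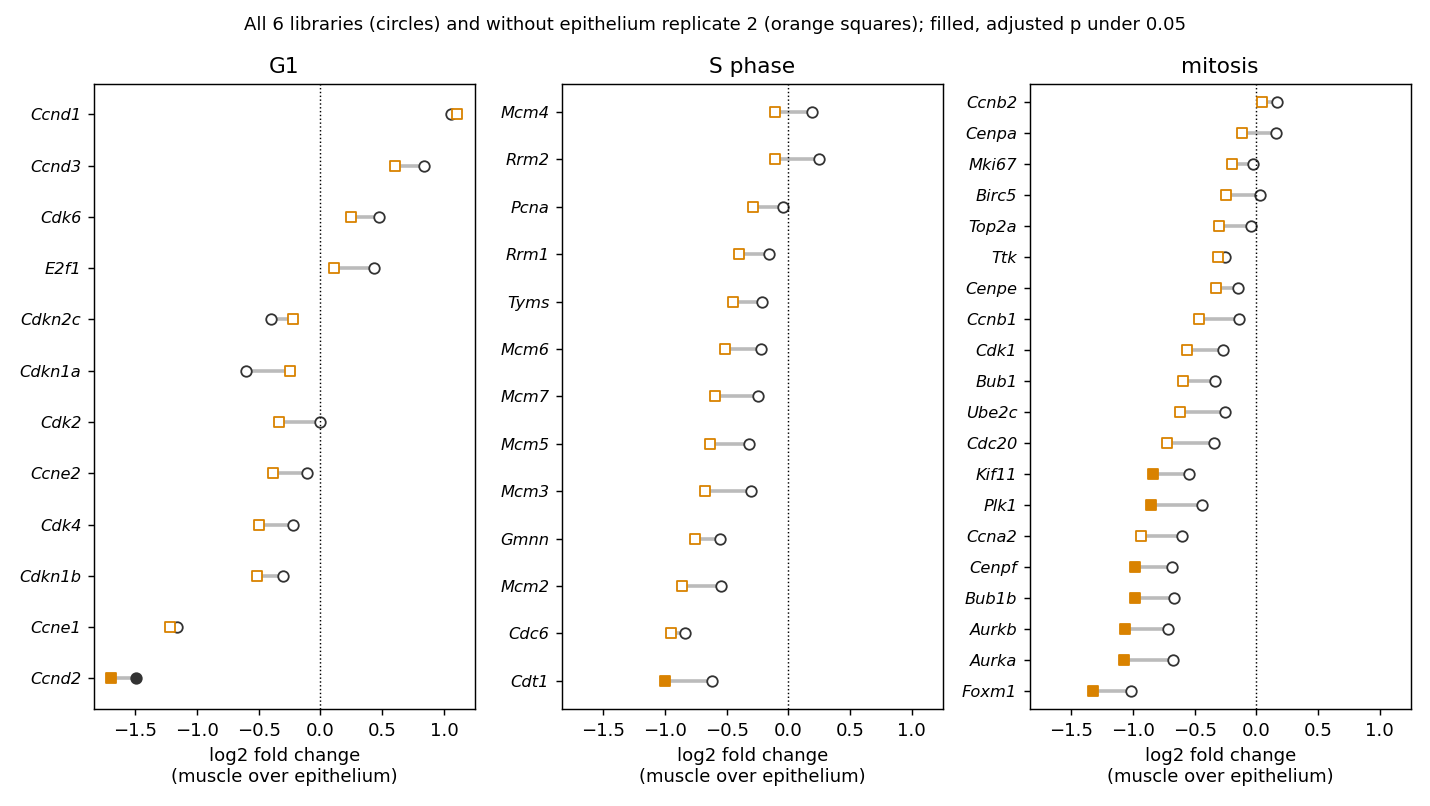
Fitted log2 fold change of muscle over epithelium (x axis) of each gene (y axis) with all 6 libraries (circles) and without epithelium replicate 2 (orange squares), filled where the adjusted p is under 0.05. In the S phase and mitosis groups every square lies to the left of its circle, and 8 of the 33 squares are filled.

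Other genes of the same pathways, from lists written for this comparison, were counted in the same fit. Of 31 further G1 regulators, 1 was higher in muscle and 3 in epithelium. Of 49 further replication genes 2 were called and of 59 further mitosis genes 2, all higher in epithelium. The shares over all tested genes were 6.58% called toward muscle and 4.11% toward epithelium. Mycn, a gene of the Myc family of growth regulators, had 15.8, 12.5 and 9.93 CPM in muscle and 337, 98.8 and 201 CPM in epithelium (log2 fold change -4.06 ± 0.47, adjusted p = 0.0010, edgeR). Myc had 152, 140.0 and 157 CPM in muscle and 47.8, 37.8 and 25.5 CPM in epithelium (2.01 ± 0.28, adjusted p = 0.0023). These related genes thus lay on opposite sides with no overlap between the groups.

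Cdkn2b, the gene of the Cdk4 and Cdk6 inhibitor p15, had 1.18, 2.90 and 2.98 CPM in muscle and 18.03, 22.5 and 20.1 CPM in epithelium (log2 fold change -3.10 ± 0.45, adjusted p = 0.0028, edgeR). It was higher in the population that also had more Ccnd2. E2f2, an activating E2F gene, was higher in epithelium at -1.49 ± 0.31 (adjusted p = 0.017). Among replication genes, the chromatin assembly gene Chaf1a (-1.79, adjusted p = 0.021) and Mcm10 (-1.19, adjusted p = 0.031) were higher in epithelium. Among mitosis genes, Wee1, the inhibitory kinase of Cdk1 (-1.83, adjusted p = 0.0076), and Ect2, which acts in cytokinesis (-1.29, adjusted p = 0.0090), were. Mycn, Myc, Cdkn2b, Wee1 and Ect2 passed in all 14 alternative fits. Mcm10 missed the threshold in 5 of the 6 fits that left 1 library out, its adjusted p reaching 0.12, E2f2 in 4 of 6, reaching 0.070, and Chaf1a without muscle replicate 1, at 0.080. In the further lists too, epithelium replicate 2 was the lowest epithelial library in 44 of 49 replication genes (89.8%) and 57 of 59 mitosis genes (96.6%). It was so in 19 of the 31 further G1 genes (61.3%), against 38.5% of all tested genes.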

How the data were processed

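The data are RNA libraries of sorted tracheal cells, 3 of muscle and 3 of epithelium, grouped by their titles. Per the labels' protocols, cDNA was made with a SMART-Seq low-input kit and libraries with Nextera XT, which carry no molecular identifiers. The authors deposited whole-number counts per gene symbol. Per the submitters' processing notes, Trim Galore, Bowtie2, Cufflinks, DESeq and mm10 were used, and their roles are not given in the sources used here. Totals ranged from 11847432 to 54848820 counts, and intervals cover the fitted spread only.

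Counts were analysed in R 4.3.3 with filterByExpr, TMM scaling and edgeR 4.0.16 (robust quasi-likelihood fit on the group alone, two-sided), adjusted by Benjamini-Hochberg over all 19375 tested genes, with a threshold of 0.05. SEs come from the test statistic. An exact permutation test of 3 against 3 libraries cannot give a p under 0.10. Alternatives were 8 other settings, among them DESeq2 1.42.0 and limma-voom (limma 3.58.1), and 6 fits that each left out a library. The scripts were tested on simulated counts. The genes and lists were chosen with earlier results of these data known. The rule for named genes took every called gene, the 3 with the largest absolute log2 fold change in each group, a fixed list, and in the 3 further lists up to 3 past the threshold in each direction with a mean log2 CPM of at least 2. The rest of the 45 were named after their values were seen, to account for all. Promoter matches cover 37 genes. Aurkb, Ccna2, Ccnd1, Ccnd2, Ccne2, Foxm1, Gmnn and Mcm4 are the others. Exon overlaps come from GENCODE M21 (13 of the 45 genes share exon bases with another gene, and 5 have a named pseudogene copy), so their values are less certain.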

Additional observations from a re-analysis of the deposited data

How the results depend on the processing

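The count of genes called among the 45 depended on the setting. With 6 libraries edgeR called 0 toward muscle and 1 toward epithelium. Higher in muscle, it was 1 with library size only, DESeq2, the replicate block, the date term and the later date only, in each case the G1 gene Ccnd3. Higher in epithelium, it was 9 with library size only (2 G1, 3 S phase, 4 mitosis), 4 with RLE size factors (2, 1, 1), 7 with DESeq2 (2, 2, 3), 3 with limma-voom (2, 1, 0), 2 with the replicate block (1, 1, 0), 5 with the date term (1, 2, 2) and 13 with the later date only (1, 4, 8). Leaving out each library in turn gave 0 to 1 higher in muscle (G1 0 to 1) and 0 to 9 higher in epithelium (G1 0 to 2, S phase 0 to 1, mitosis 0 to 7). Median log2 fold changes ranged from -0.29 to 0.02 (G1), -0.59 to -0.04 (S phase) and -0.61 to -0.18 (mitosis) in those fits. Over all tested genes the counts were 1274 and 797, then 1949 and 1582 with DESeq2, 2054 in muscle with the date term, 1439 in epithelium with library size only, and 570 to 1655 and 514 to 918 without a library. In either direction 10.7% of all tested genes were called in the main fit, 12.8% with library size only and 11.3% with RLE size factors. The share was 12.8% with limma-voom, 12.5% with the replicate block, 16.4% with the date term and 17.6% for the later date. Of these calls, 55.8% (RLE size factors), 64.0% (limma-voom), 66.3% (replicate block), 64.6% (date term) and 60.7% (later date) were higher in muscle. Library size only moved the median of all tested genes from -0.10 to -0.33, and of the called genes 42.0% instead of 61.5% were then higher in muscle. Ccnd2 passed in 13 of 14 alternatives (adjusted p from 4.56e-10 to 0.059), and 29 of the 45 genes passed in none.

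Fitted signs changed in 14 of the 45 genes, none of them called with 6 libraries. Cdk2 was 0.0123 without a filter, 0.0531 with limma-voom, 0.0569 with the replicate block and 0.0567 with the date term. Cdkn1a was 0.0757 for the later date. Mcm4 was -0.044 with library size only and -0.0161 for the later date, and Rrm2 -0.0223 for the later date. With library size only Ccnb2 was -0.0734, Birc5 -0.175 and Cenpa -0.0506. Birc5 was -0.0549 with RLE size factors, -0.055 with DESeq2 and -0.36 for the later date, and Cenpa -0.17 for the later date. Without a library the log2 fold change ranged from -0.50 to 0.0084 for Cdk4, -0.34 to 0.16 for Cdk2, -0.39 to 0.0378 for Ccne2, -0.11 to 0.40 for Mcm4, -0.59 to 0.042 for Mcm7, -0.28 to 0.15 for Pcna, -0.11 to 0.50 for Rrm2, -0.46 to 0.00385 for Ccnb1, -0.19 to 0.12 for Mki67, -0.30 to 0.11 for Top2a, -0.24 to 0.15 for Birc5 and -0.12 to 0.39 for Cenpa. The cause was not tested. The replicate numbers were not taken as a pairing. Deviations of same-numbered libraries from their group means correlated at 0.54, 0.63 and -0.345 over 19375 genes, and the pair numbered 3 went apart. Over the 4123 genes with a mean log2 CPM of at least 6 the values were 0.19, 0.16 and -0.18. Over the 45 genes they were 0.22, 0.19 and 0.016. With the replicate block Ccnd3 and Cdc6 passed beside Ccnd2.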

Other observations

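Lists that bear on arrest and on sorting stress were counted as well. Of 15 genes activated by p53, the regulator of Cdkn1a, 3 were called, 1 of them toward muscle. Of 16 genes of the response to dissociation 3 were called, all of them toward epithelium (edgeR). Over all tested genes 10.7% were called, 4.11% toward epithelium. The summed level of the dissociation list was 22000, 9639 and 25600 CPM in the muscle libraries and 26050, 29490 and 32980 CPM in the epithelial ones, in replicate order. The summed p53 list had 2552, 1376 and 2505 CPM in muscle and 2648, 2662 and 2733 CPM in epithelium. Epithelium replicate 2 lay between the other epithelial libraries in both sums. The sums rest largely on a few abundant genes, such as Btg2 of the p53 list (1964, 1997 and 2129 CPM in epithelium). Single genes of the dissociation list placed this library at either end. Nr4a1 was highest in it (871, 1742 and 916 CPM in epithelium) and Jun lowest (7611, 4257 and 7862 CPM).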
